A study of Mus musculus with 16 samples.

Results

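Type I interferon response genes are the genes that a cell switches on when its interferon receptor is engaged. The set described here held 38 genes chosen by name, of which 37 were among the 16793 rows of the deposited table. Mx2 was the member without a row and was not analysed here. By role, the 37 comprised 5 sensors of foreign nucleic acid (Ifih1, Ddx58, Dhx58, Zbp1 and Eif2ak2), 3 transcription factors (Stat2, Irf7 and Irf9), 25 effectors and 4 modifiers of other proteins (Usp18, Trim25, Trim30a and Herc6). The effectors comprised 4 Ifit genes, 6 oligoadenylate synthetase genes and 15 others. All 37 passed the minimum mean of 10 normalized counts in each comparison.

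In this pathway, sensors in the cytosol detect foreign or misplaced RNA and DNA and trigger secretion of interferon. Interferon binds a receptor on the same or a neighbouring cell, whose kinases activate Stat2, which joins Irf9 in a complex that binds a short DNA element in front of the response genes. The products block steps of viral growth, and several are themselves sensors or factors of the pathway, so that the response feeds back on itself. In the liver, hepatocytes, Kupffer cells and endothelial cells can all respond.

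The data were polyadenylated RNA sequencing of whole mouse livers bearing induced primary liver cancer, with 16 libraries in 4 groups of 4. In the first experiment, female mice without ovaries (ovariectomy, OVX), which lack the main source of oestrogen, were set against females given a mock operation (Sham). In the second, livers made to overexpress LCAT, the plasma enzyme that esterifies cholesterol on lipoproteins, were set against livers given an empty vector (Vec). All mice are labelled WT, and liver cancer was induced in every group. How it was induced, the strain and age, the sex of the LCAT and Vec mice, and the vector and promoter that carried LCAT are unknown (not given in the sources used here). Nothing in the labels says that the 4 libraries of a group came from separate animals, so p-values measure the spread between these libraries, which may be technical.

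Library depth was 17782178 to 27110501 reads in OVX, 21428827 to 25850761 in Sham, 12562943 to 19248762 in LCAT and 14412808 to 20659336 in Vec livers. Mouse Lcat, the check of the labels, had 4531 to 5106 normalized counts in LCAT livers, against 2926 to 4521 in Vec livers (log2 fold change 0.54, limma adjusted p = 0.0168; two-sided exact permutation test over 70 splits, p = 0.0286, the lowest value it can reach). It missed the threshold once libraries were scaled to equal totals (0.35, limma adjusted p = 0.0674), with transcript length smoothed out (0.19, limma adjusted p = 0.296), and without Vec 2 or Vec 4. Hepatocyte markers, the defining genes of the tissue, summed to 2794000 to 4874000 normalized counts per library. Libraries did not scatter evenly within groups: libraries 2 and 3 both lay between libraries 1 and 4 in 40.9% of genes in OVX, 54.7% in Sham and 58.9% in LCAT, against 11.6% in Vec. LCAT libraries 1 and 4 differed most, and did so by transcript length. The median log2 difference, LCAT 1 minus LCAT 4, was 0.64 in the quartile of shortest genes and -0.64 in that of the longest.

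The complex that holds Stat2 and Irf9 is known to bind an element built on repeated GAAA, so the promoters were searched for it, and those that bear on the results below are printed so that its layout can be seen. RefSeq (GRCm38.p6) gave a promoter entry of 300 bases, 250 before and 50 after the start, for 27 of the 38 genes. The motif searched was GAAA, any 2 bases and GAAA again, on either strand, so that it reads TTTC, any 2 bases and TTTC on the other; overlapping copies were counted. It was present in 14 of the 27 genes (51.9%), against 3.99% of the 27025 genes with a promoter entry. At least 2 copies were present in 7 members, against 0.266% of all genes. By role, the motif was found in 3 of 3 sensors, 1 of 3 transcription factors, 3 of 4 Ifit genes, 3 of 5 oligoadenylate synthetase genes, 3 of 9 other effectors and 1 of 3 modifiers with an entry. In the 3 sensors it lay after the start and not before it, with its first base at 33 in Ifih1, 3 in Ddx58 and 19 in Eif2ak2. A match describes the letters in this window and is not evidence of binding.

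The 7 sequences below are the 250 bases before the start, 5′ to 3′ on the gene's strand, with the motif in capitals. Isg15 (chr4:156200819-156201068, minus strand) is shown because it held 3 overlapping copies, the most of any member. Ifit1 (chr19:34640639-34640888, plus strand), Ifit3 (chr19:34583279-34583528, plus strand) and Ifit3b (chr19:34607707-34607956, plus strand) are shown because they held the same 2 copies in the same order. Oas3 (chr5:120777660-120777909, minus strand) had the largest decrease under LCAT, and Stat2 (chr10:128270248-128270497, plus strand) was the transcription factor with a match. Bst2 (chr8:71537473-71537722, minus strand) held 2 copies and passed the threshold in neither comparison.
Isg15: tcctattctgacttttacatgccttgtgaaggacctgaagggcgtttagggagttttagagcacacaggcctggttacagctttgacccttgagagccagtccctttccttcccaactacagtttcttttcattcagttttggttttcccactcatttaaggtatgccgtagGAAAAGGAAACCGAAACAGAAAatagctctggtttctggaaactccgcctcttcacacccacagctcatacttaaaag
Ifit1: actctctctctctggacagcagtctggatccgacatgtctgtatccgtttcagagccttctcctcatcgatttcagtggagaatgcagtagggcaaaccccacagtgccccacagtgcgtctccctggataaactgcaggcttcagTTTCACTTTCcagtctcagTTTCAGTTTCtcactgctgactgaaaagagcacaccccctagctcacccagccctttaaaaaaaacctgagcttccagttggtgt
Ifit3: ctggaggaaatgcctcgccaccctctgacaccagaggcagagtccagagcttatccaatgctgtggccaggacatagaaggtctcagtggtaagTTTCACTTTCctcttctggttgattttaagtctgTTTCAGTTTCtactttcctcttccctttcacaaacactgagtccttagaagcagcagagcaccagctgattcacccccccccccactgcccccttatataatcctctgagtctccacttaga
Ifit3b: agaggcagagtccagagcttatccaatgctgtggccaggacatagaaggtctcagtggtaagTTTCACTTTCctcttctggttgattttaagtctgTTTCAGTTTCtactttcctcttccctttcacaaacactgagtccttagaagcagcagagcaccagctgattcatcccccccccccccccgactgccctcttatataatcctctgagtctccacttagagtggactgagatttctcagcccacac
Oas3: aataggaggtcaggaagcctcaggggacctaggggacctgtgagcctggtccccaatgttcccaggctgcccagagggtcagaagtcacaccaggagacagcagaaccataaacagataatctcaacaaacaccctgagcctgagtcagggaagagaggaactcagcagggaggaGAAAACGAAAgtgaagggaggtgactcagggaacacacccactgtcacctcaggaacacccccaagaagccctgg
Stat2: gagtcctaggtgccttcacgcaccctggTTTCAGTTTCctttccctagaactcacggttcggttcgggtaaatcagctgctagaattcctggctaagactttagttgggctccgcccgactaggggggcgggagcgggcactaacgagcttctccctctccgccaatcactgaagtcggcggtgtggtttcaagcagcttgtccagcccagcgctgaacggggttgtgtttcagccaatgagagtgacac
Bst2: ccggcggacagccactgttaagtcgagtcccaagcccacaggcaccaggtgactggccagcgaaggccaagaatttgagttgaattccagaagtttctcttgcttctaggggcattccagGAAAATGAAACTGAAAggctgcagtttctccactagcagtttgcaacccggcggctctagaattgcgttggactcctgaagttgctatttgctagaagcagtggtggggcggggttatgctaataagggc

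Several members are also neighbours. Ifit2, Ifit3, Ifit3b and Ifit1 lie in that order within chr19:34550694-34650009, and Oas2, Oas3, Oas1g and Oas1a within chr5:120730333-120907521 (GENCODE M21, GRCm38). Oasl2 and Oasl1 lie side by side within chr5:114896936-114937915, and Rsad2 and Cmpk2 within chr12:26442746-26479837 on opposite strands. Ifit3 shared 51.2% of its 50-base stretches with Ifit3b, and Oas1a 57.6% with Oas1g, so the split of reads within those pairs is uncertain. Whether reads were counted by strand is unknown. Ifi35, with 16.8% of its exon bases overlapped by a gene on the opposite strand, and Rtp4 and Herc6, with 13.9% and 13.7% overlapped by a gene on the same strand, are uncertain for that reason.

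Ovariectomy was compared with sham surgery to see how lack of ovarian hormones altered the tumour-bearing liver. Of the 37 interferon response genes, 32 rose and 0 fell in OVX livers, and the other 5 also had positive log2 fold changes. The median log2 fold change was 1.14 over the 37 genes and 0.00 over the 13055 genes tested. The calls are those of limma on log2(value + 1) with a Benjamini-Hochberg adjusted p below 0.05 over all genes tested. By that rule 19% of all genes rose (2484) and 20.6% fell (2683). The count of members that fell was also 0 at an unadjusted p below 0.05 and by edgeR and DESeq2. For 32 members every OVX value lay above every Sham value, which held for 18.9% of all genes, and for 0 members every OVX value lay below, which held for 20.1%. Scaling the libraries to equal totals moved the median of all genes by 0.25 and the split of calls to 4468 higher and 1210 lower. All 37 members passed as higher under that scaling.

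At least 3 genes rose in every role group. The median log2 fold change was 1.87 for the oligoadenylate synthetase genes (6 of 6 higher), 1.56 for the Ifit genes (4 of 4), 1.08 for the sensors (5 of 5), 0.99 for the modifiers (3 of 4), 0.86 for the other effectors (11 of 15) and 0.40 for the transcription factors (3 of 3). Differences between role groups were not tested. The largest single increases were in Oas2 (3.38), Ifit1 (2.61), Zbp1 (2.56), Isg15 (2.48), Oasl2 (2.45) and Ifi44 (2.15). These are whole-tissue libraries, in which more cells of a responding type and more RNA per cell cannot be told apart.

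**Figure D1:**
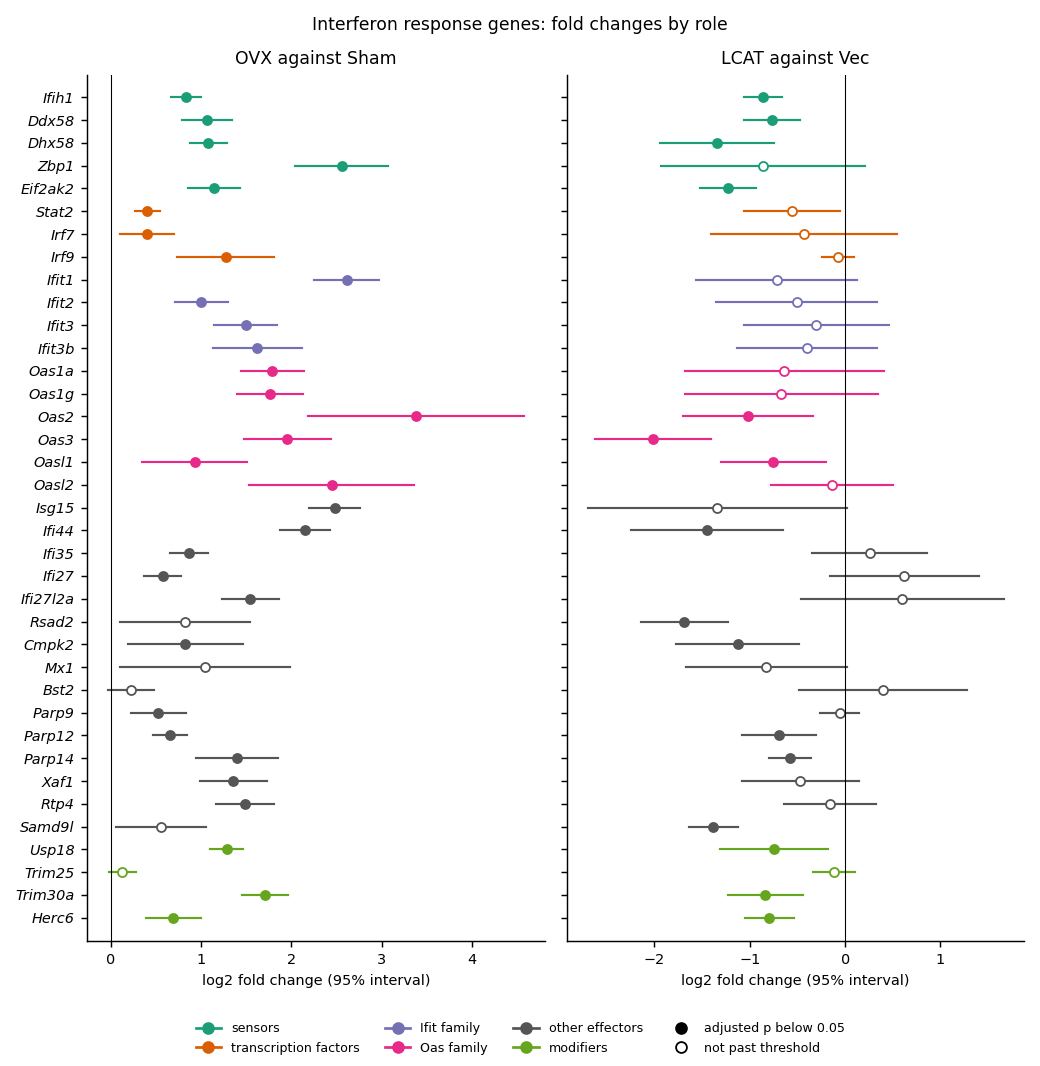
Log2 fold change with its 95% interval for each of the 37 members, OVX against Sham on the left and LCAT against Vec on the right, coloured by role; filled points passed a limma adjusted p below 0.05. On the left 32 points are filled and all lie right of 0; on the right 16 are filled and all of these lie left of 0, while Ifi35, Ifi27, Ifi27l2a and Bst2 lie right of 0 and are open, of which Ifi35 and Bst2 change sign when transcript length is smoothed out.

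Among the sensors, Ifih1, which encodes the long double-stranded RNA sensor MDA5, had 973, 1017, 1017 and 1144 normalized counts in OVX livers 1 to 4, against 551, 576, 597 and 606 in Sham livers (log2 fold change 0.83, SE 0.072, limma adjusted p = 0.000137). Ddx58, which encodes RIG-I, a sensor of uncapped RNA ends, had 1000.2, 1041, 1067 and 1224 in OVX livers, against 427, 488, 543 and 619 in Sham livers (log2 fold change 1.07, SE 0.12, limma adjusted p = 0.000431). Dhx58, which encodes LGP2, a regulator of MDA5 and RIG-I, had 534, 567, 579 and 606 in OVX livers, against 240.2, 269, 267 and 307 in Sham livers (log2 fold change 1.08, SE 0.091, limma adjusted p = 0.000122). In these 3 genes the lowest OVX library stood well clear of the highest Sham library. Zbp1, a sensor of Z-form nucleic acid that can start necroptosis, had 623, 564, 555 and 369.8 in OVX livers, against 68.5, 75.5, 87.7 and 128 in Sham livers (log2 fold change 2.56, SE 0.23, limma adjusted p = 0.000155). Eif2ak2, which encodes PKR, a kinase that halts translation when it binds double-stranded RNA, had 617, 595, 602 and 647 in OVX livers, against 228, 261, 285 and 352 in Sham livers (log2 fold change 1.14, SE 0.13, limma adjusted p = 0.0004). Zbp1 showed the widest gap of the 5, and OVX 4, its lowest OVX library, was still above Sham 4, its highest Sham library.

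The transcription factors all rose, Stat2 and Irf7 by less than most other members. Stat2, the transactivating subunit of the complex, had 1123, 1084, 1084 and 1029.7 normalized counts in OVX livers 1 to 4, against 779.8, 812, 814 and 859.6 in Sham livers (log2 fold change 0.40, SE 0.061, limma adjusted p = 0.00163). Irf7, which amplifies transcription of interferon alpha genes, had 1192, 1469, 1281 and 1139.9 in OVX livers, against 874, 1117, 791 and 1092 in Sham livers (log2 fold change 0.40, SE 0.13, limma adjusted p = 0.0416). The groups did not overlap for either gene, but for Irf7 OVX 4 and Sham 2 almost met, and its call was lost in 5 of the 8 fits that left out 1 library and in the fit of all 16 libraries together, which also lost Stat2. Irf9, the DNA-binding subunit of the complex, had 925, 926, 830.0 and 796 in OVX livers, against 227, 326, 412 and 544 in Sham livers (log2 fold change 1.27, SE 0.23, limma adjusted p = 0.00405). The Sham livers spread widely for Irf9, with Sham 1 lowest and Sham 4 highest, and all stayed below the OVX livers.

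All 4 Ifit genes, whose proteins bind foreign RNA or block its translation, rose. Ifit1 had 530.3, 628, 652 and 669 normalized counts in OVX livers 1 to 4, against 74.8, 103, 105 and 125 in Sham livers (log2 fold change 2.61, SE 0.16, limma adjusted p = 3.17e-05). Ifit2 had 209, 218, 208 and 267 in OVX livers, against 112, 107, 131 and 98.6 in Sham livers (log2 fold change 1.002, SE 0.13, limma adjusted p = 0.000727). Ifit3 had 258, 297, 315 and 413 in OVX livers, against 102, 102, 118 and 125 in Sham livers (log2 fold change 1.49, SE 0.15, limma adjusted p = 0.000287). No OVX value of these genes overlapped a Sham value, and OVX 4 was the highest library for each. Ifit3b, the near copy of Ifit3, had a log2 fold change of 1.62 and also passed.

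Those oligoadenylate synthetases that are active enzymes make short adenylate chains that activate the RNA-degrading enzyme RNase L. Oas1a had 649, 662, 615 and 609 normalized counts in OVX livers 1 to 4, against 136, 172, 209 and 228 in Sham livers (log2 fold change 1.79, SE 0.15, limma adjusted p = 0.000132). Oas1g had 441, 411, 407 and 397 in OVX livers, against 88.5, 118, 132 and 155 in Sham livers (log2 fold change 1.76, SE 0.16, limma adjusted p = 0.000169). Both genes were nearly even across the OVX livers, and Sham 1 was the lowest and Sham 4 the highest of the Sham libraries. Oas2 had 478, 424, 383 and 266 in OVX livers, against 11.6, 31.9, 47.7 and 86.7 in Sham livers (log2 fold change 3.38, SE 0.52, limma adjusted p = 0.00183). Oas3, the synthetase that responds to long RNA, had 84.0, 90.5, 93.2 and 104 in OVX livers, against 17.9, 19.3, 32.3 and 25.6 in Sham livers (log2 fold change 1.96, SE 0.21, limma adjusted p = 0.00034). Oas2 had the largest log2 fold change of all members, with Sham 1 the lowest Sham library and OVX 4 the lowest OVX library. Oasl1, which in the mouse represses translation of Irf7, had 302, 514, 320.1 and 662 in OVX livers, against 201, 192, 273 and 235 in Sham livers (log2 fold change 0.93, SE 0.26, limma adjusted p = 0.021). Oasl1 was split within the OVX group, with OVX 2 and OVX 4 above OVX 1 and OVX 3, and its call was lost without OVX 2 and without Sham 2. Oasl2 rose by a log2 fold change of 2.45.

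Of the 15 other effectors, 11 rose. Isg15, a ubiquitin-like protein attached to other proteins, had 584, 602, 554 and 559 normalized counts in OVX livers 1 to 4, against 81.1, 105, 106 and 120.5 in Sham livers (log2 fold change 2.48, SE 0.12, limma adjusted p = 2.21e-05). Ifi44 had 481, 455, 450.2 and 396 in OVX livers, against 85.4, 92.3, 106 and 117 in Sham livers (log2 fold change 2.15, SE 0.12, limma adjusted p = 2.7e-05). Neither gene showed any overlap, and the 4 OVX values of Isg15 lay within a narrow band. Parp12, a mono-ADP-ribosyltransferase, had 1104, 1131, 1168 and 1328 in OVX livers, against 723, 695, 777 and 806 in Sham livers (log2 fold change 0.65, SE 0.082, limma adjusted p = 0.000675). Parp14, of the same enzyme family, had 1258, 1169, 1254 and 1239 in OVX livers, against 316, 447, 493 and 682 in Sham livers (log2 fold change 1.40, SE 0.2, limma adjusted p = 0.00126). Cmpk2, a nucleotide kinase of mitochondria, had 164, 231, 258 and 463 in OVX livers, against 149, 124, 146 and 167 in Sham livers (log2 fold change 0.83, SE 0.28, limma adjusted p = 0.0445). The Cmpk2 groups overlapped, since OVX 1 lay below Sham 4, and the call was lost in 5 of the 8 fits that left out 1 library. Ifi27l2a (1.54), Rtp4 (1.49), Xaf1, an antagonist of an inhibitor of cell death (1.36), Ifi35 (0.86), Ifi27 (0.58) and Parp9 (0.53) completed the 11. The Ifi27 call was lost in the fit of all 16 libraries (limma adjusted p = 0.0994).

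The other effectors that missed the threshold were Rsad2, Mx1, Bst2 and Samd9l. Rsad2, which encodes viperin, an enzyme that makes a chain-terminating nucleotide, had 167, 251, 294 and 554 normalized counts in OVX livers 1 to 4, against 156, 154, 187 and 152 in Sham livers (log2 fold change 0.82, SE 0.31, limma adjusted p = 0.0667). Samd9l, a restriction factor of poxviruses, had 668, 682, 719 and 859 in OVX livers, against 324, 471, 540.5 and 719 in Sham livers (log2 fold change 0.56, SE 0.22, limma adjusted p = 0.0711). In both genes the groups overlapped through 1 library: OVX 1 for Rsad2 and Sham 4 for Samd9l. Mx1, a GTPase that restricts influenza virus in the mouse, averaged 46.0 ± 17.3 in OVX livers and 22.5 ± 9.16 in Sham livers (SD, n = 4 each; log2 fold change 1.04, limma adjusted p = 0.0744). Bst2, which encodes tetherin, a membrane anchor that holds budding virus, averaged 3691 ± 585 in OVX livers and 3130.0 ± 176 in Sham livers (SD, n = 4 each; log2 fold change 0.23, limma adjusted p = 0.136).

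Of the modifiers, Usp18, which strips Isg15 from proteins and restrains signalling at the receptor, had 614, 606, 571 and 547 normalized counts in OVX livers 1 to 4, against 262, 238, 237 and 222 in Sham livers (log2 fold change 1.28, SE 0.081, limma adjusted p = 3.5e-05). Trim30a, a mouse ubiquitin ligase that dampens Toll-like receptor signalling, had 354, 383, 347 and 349 in OVX livers, against 107, 90.7, 116 and 123 in Sham livers (log2 fold change 1.71, SE 0.11, limma adjusted p = 4.28e-05). Herc6, the main ligase that attaches Isg15 in the mouse, had 294, 314, 302 and 358 in OVX livers, against 229, 199, 209 and 153 in Sham livers (log2 fold change 0.69, SE 0.13, limma adjusted p = 0.00493). The groups were apart for all 3, and least so for Herc6, where OVX 1 stood above Sham 1. Trim25, a ubiquitin ligase that acts on RIG-I, had every OVX value above every Sham value, at 1949 to 2158 in OVX livers and 1713 to 1943 in Sham livers, with a log2 fold change of 0.13 that missed the threshold (limma adjusted p = 0.147).

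Libraries of a group differed in a shared way for many members. OVX 4 was highest and OVX 1 lowest of the OVX libraries for 17 of 37 members (45.9%), against 21.2% of all genes tested, and most widely for Rsad2, Cmpk2 and Mx1. Sham 4 was highest and Sham 1 lowest of the Sham libraries for 20 members (54.1%), against 25.9% of all genes tested.

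**Figure D2:**
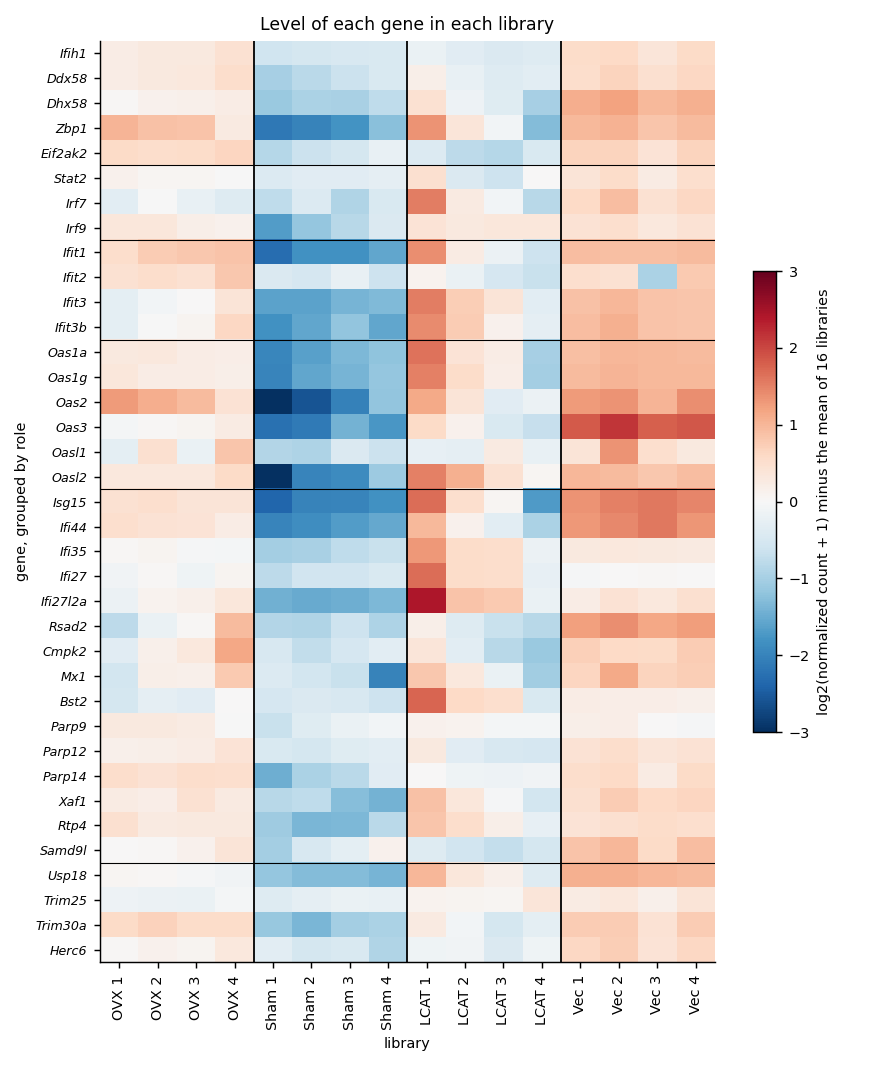
Level of each member (rows, grouped by role) in each of the 16 libraries (columns), as log2(normalized count + 1) minus the gene's mean over the 16 libraries, with red above and blue below the mean. The Sham columns are blue for nearly every gene, while LCAT 1 is mostly red, with a mean over members of 0.77, and LCAT 4 mostly blue, with a mean of -0.48.

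Several sets of cell type markers moved with ovariectomy. Of all genes, 19% rose and 20.6% fell. Markers of leukocytes in general were higher for 5 of 6 genes, with a summed level of 1831 to 1982 normalized counts in OVX livers, against 1332 to 1450 in Sham livers. Monocyte markers were higher for 7 of 10 and lower for 1, with sums of 10930 to 12080 in OVX livers and 5547 to 6013 in Sham livers. Most of that sum is Mpeg1, and without it the sums were 915 to 1034 in OVX livers and 436 to 591 in Sham livers. Of the T cell markers, Cd4, Lck and Thy1 reached the minimum mean, and all 3 rose. Cd4 (means of 18.3 in OVX and 3.69 in Sham livers) and Lck (23.6 and 3.14) reached that mean only through their OVX values. Their increases are therefore weak evidence. Cd3e, Cd3d, Cd3g, Cd8a, Cd8b1 and Cd2 were not tested, and their groups overlapped. The sum over 10 markers was 207 to 237 in OVX livers and 33.7 to 94.0 in Sham livers, with Cd5 at 0 in every Sham library. Markers of dividing cells were higher for 6 of 6, with sums of 1362 to 2481 in OVX livers and 149 to 273 in Sham livers. Kupffer cell markers were lower for 3 of 12 (25.0%, near the share of all genes) and higher for 0. Their sums overlapped, at 6616 to 9564 in OVX livers and 8889 to 9310 in Sham livers. Endothelial markers were lower for 5 of 9, with sums of 4054 to 4291 in OVX livers and 5471 to 5881 in Sham livers, and hepatocyte markers were lower for 3 of 9. Of 7 B and plasma cell markers with a row, 2 reached the minimum mean and rose. Markers of cholangiocytes rose for 3 of 5 tested. Markers of plasmacytoid dendritic cells, strong producers of interferon, rose for 1 of 5 tested; that list holds Bst2, a member. Siglech, their defining marker, had 18 reads in all OVX libraries together and 0 in Sham. The part of these cell types in the interferon result was not tested.

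LCAT livers were compared with Vec livers to see what overexpression of the enzyme changed, and here the calls ran in the opposite direction. Of the 37 members, 16 fell and 0 rose in LCAT livers, with a median log2 fold change of -0.69, against 0.00 over the 13091 genes tested. Of all genes, 20.5% fell (2681) and 20.2% rose (2648). The count of members that rose was 0 at an unadjusted p below 0.05 too, and 0 by edgeR and DESeq2, each of which had 1 at an unadjusted p below 0.05. The 16 were the sensors Ifih1, Ddx58, Dhx58 and Eif2ak2, the synthetases Oas2, Oas3 and Oasl1, the effectors Ifi44, Rsad2, Cmpk2, Parp12, Parp14 and Samd9l, and the modifiers Usp18, Trim30a and Herc6. For 14 of the 37 members (37.8%), all of them among the 16, every LCAT value lay below every Vec value. That held for 20.3% of all genes. Scaling to equal totals moved the median of all genes by -0.18 and the split to 1781 higher and 3962 lower genes; 20 members were then called lower.

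The count depended on LCAT 1, the library in which the members were highest. LCAT 1 was the highest of the 4 LCAT libraries for 34 of 37 members, and LCAT 1 was highest and LCAT 4 lowest for 25 (67.6%), a pattern shown by 29% of all genes. LCAT 1 lay above every Vec library for 15 members and below every Vec library for 15. LCAT 2, LCAT 3 and LCAT 4 all lay below every Vec library for 27. How often all genes show these positions against Vec, or LCAT 1 highest alone, was not counted. Those counts therefore only describe the members. Without LCAT 1, 25 members were lower, with a median log2 fold change of -0.87. Zbp1, Stat2, Irf7, Ifit1, Ifit3b, Oas1a, Oas1g, Isg15, Mx1 and Xaf1 were then called and Oasl1 was not. Without LCAT 4, 15 were lower and Ifi27 was higher.

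Transcript length moved with this. Over the 37 members the Spearman rho with transcript length was -0.752 for the difference LCAT 1 minus LCAT 4, -0.404 for the LCAT log2 fold change and -0.244 for the OVX log2 fold change; these genes come from the same libraries, so the values are descriptions. Of the 11 members under 2000 bases, 1 was lower in LCAT livers, with a median log2 fold change of -0.30. Of the 8 members of 4000 bases or more, 6 were lower, with a median of -0.83. The share of all genes called lower was not counted by length, so these counts only describe the members. Over all genes the LCAT effect had a median of 0.36 in the quartile of shortest transcripts and -0.37 in that of the longest; for OVX these medians were -0.05 and 0.01. With length smoothed out of each library, a setting chosen after seeing the data, 15 members were lower in LCAT livers: Oas2 and Parp14 were no longer called and Isg15 was. In OVX livers 31 were higher under that setting.

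**Figure D3:**
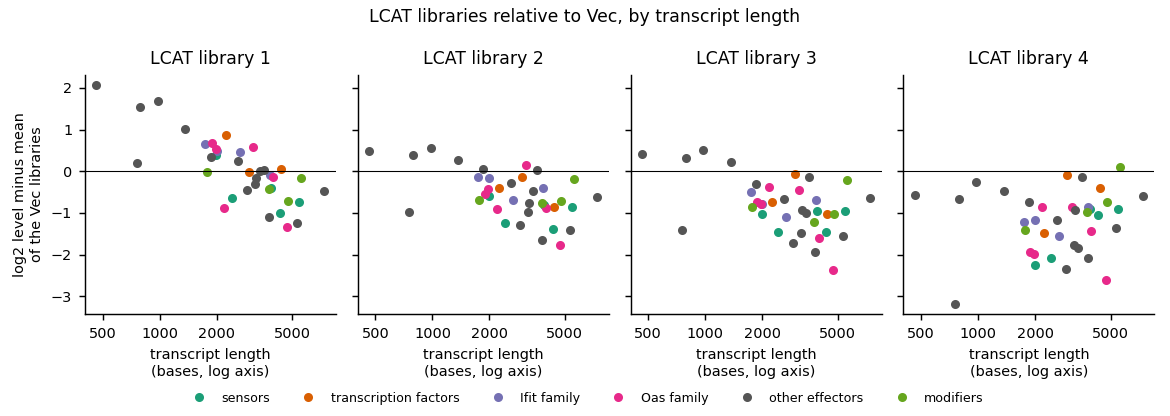
Log2 level of each member in LCAT libraries 1 to 4 minus the mean of the Vec libraries, against transcript length in bases on a log axis, coloured by role. In LCAT 1, 10 of the 11 members under 2000 bases stand above 0 and 7 of the 8 of 4000 bases or more below it, with Usp18 and Stat2 the exceptions; in LCAT 2, LCAT 3 and LCAT 4 most members stand below 0.

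Of the 5 sensors, 4 fell, with a median log2 fold change of -0.86. Ifih1 had 716, 658, 615 and 638 normalized counts in LCAT livers 1 to 4, against 1218, 1249, 1071 and 1228 in Vec livers (log2 fold change -0.86, SE 0.087, limma adjusted p = 0.000173). Eif2ak2 had 311, 239.9, 228 and 301 in LCAT livers, against 652, 659.8, 551 and 658 in Vec livers (log2 fold change -1.23, SE 0.13, limma adjusted p = 0.000223). Ddx58 had 961, 723, 653 and 678 in LCAT livers, against 1224, 1345, 1186 and 1311 in Vec livers (log2 fold change -0.76, SE 0.13, limma adjusted p = 0.00237). The LCAT libraries of Ifih1 and Eif2ak2 lay close together and far below the Vec libraries, and for Ddx58 LCAT 1 was nearer to them. Dhx58 had 716, 472, 405 and 263 in LCAT livers, against 1117, 1202, 1032 and 1089.5 in Vec livers (log2 fold change -1.35, SE 0.26, limma adjusted p = 0.00452). Zbp1, which missed the threshold, had 778, 391, 289 and 124 in LCAT livers, against 597, 626, 544 and 591 in Vec livers (log2 fold change -0.86, SE 0.47, limma adjusted p = 0.169). For Zbp1, LCAT 1 lay above every Vec library and LCAT 4 far below them.

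Of the 3 transcription factors 0 passed the threshold in the reported limma fit, by edgeR or by DESeq2. Stat2 alone had an unadjusted limma interval below 0. Stat2 was called lower in the limma fit of all 16 libraries, and both Stat2 and Irf9 were with equal totals. Stat2 had 1434, 765, 676 and 1038 normalized counts in LCAT livers 1 to 4, against 1343, 1509, 1231 and 1454 in Vec livers (log2 fold change -0.56, SE 0.22, limma adjusted p = 0.0729). Irf7 had 4319.9, 1788, 1413 and 836 in LCAT livers, against 2249, 2823, 2060.3 and 2307 in Vec livers (log2 fold change -0.43, SE 0.43, limma adjusted p = 0.441). Irf9 had 972, 895, 932 and 929 in LCAT livers, against 993, 1044, 912 and 983 in Vec livers (log2 fold change -0.08, SE 0.075, limma adjusted p = 0.441). For Stat2 and Irf7, LCAT 1 stood among or above the Vec libraries and LCAT 2 to 4 below them. The Irf9 libraries lay within a narrow range in both groups, and the 95% interval of its log2 fold change was -0.25 to 0.10.

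Of the 4 Ifit genes 0 passed the threshold in the reported limma fit, by edgeR or by DESeq2. The 95% limma intervals all included 0, and the log2 fold changes were -0.72 to -0.30. Ifit2 was called lower in the fit without Vec 3. Ifit1 had 964, 435, 327 and 238 normalized counts in LCAT livers 1 to 4, against 699, 694, 686 and 718 in Vec livers (log2 fold change -0.72, SE 0.37, limma adjusted p = 0.151). Ifit2 had 165, 132, 107 and 95.8 in LCAT livers, against 215, 209.8, 77.9 and 263 in Vec livers (log2 fold change -0.51, SE 0.37, limma adjusted p = 0.295). Ifit3 had 913, 528, 413 and 250.3 in LCAT livers, against 574, 626, 570.5 and 563 in Vec livers (log2 fold change -0.30, SE 0.33, limma adjusted p = 0.491). In each gene LCAT 1 was the highest LCAT library and LCAT 4 the lowest, and Ifit2 also had a single low Vec library, Vec 3. Ifit3 had a log2 fold change of 0.0039 without LCAT 4.

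Of the synthetases, Oas2, Oas3 and Oasl1 fell. Oas3 had 132, 96.8, 63.7 and 54.1 normalized counts in LCAT livers 1 to 4, against 319, 389, 307 and 322 in Vec livers (log2 fold change -2.02, SE 0.27, limma adjusted p = 0.000691). Oas2 had 434, 259, 155 and 175 in LCAT livers, against 483, 507, 404 and 522 in Vec livers (log2 fold change -1.02, SE 0.3, limma adjusted p = 0.026). Oasl1 had 309.6, 305, 444 and 317 in LCAT livers, against 480.0, 945, 522 and 453 in Vec livers (log2 fold change -0.75, SE 0.24, limma adjusted p = 0.0371). Oas3 was far below Vec in every LCAT library, while LCAT 1 overlapped the Vec range for Oas2. The Oas2 call was lost in 4 of the 8 fits without 1 library and the Oasl1 call in 5. Oas1a, in the same gene cluster as Oas2 and Oas3, had 1650.5, 700.0, 618 and 267 in LCAT livers, against 988, 1065, 1041 and 1027 in Vec livers (log2 fold change -0.64, SE 0.46, limma adjusted p = 0.287). Oas1g had 999, 511, 401 and 173 in LCAT livers, against 673, 709.8, 691 and 692 in Vec livers (log2 fold change -0.67, SE 0.44, limma adjusted p = 0.252). For both, LCAT 1 lay above every Vec library and LCAT 2 to 4 below, LCAT 4 the farthest. Oasl2 had a log2 fold change of -0.14 and 0.097 without LCAT 4.

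Of the other effectors, 6 fell. Samd9l had 502, 444, 405 and 459 normalized counts in LCAT livers 1 to 4, against 1199, 1309.8, 988 and 1248 in Vec livers (log2 fold change -1.39, SE 0.11, limma adjusted p = 5.97e-05). Rsad2 had 324, 221, 182 and 162 in LCAT livers, against 679, 759, 648 and 688 in Vec livers (log2 fold change -1.69, SE 0.2, limma adjusted p = 0.000411). Ifi44 had 664, 372, 271 and 176 in LCAT livers, against 841, 919.6, 1012 and 848 in Vec livers (log2 fold change -1.45, SE 0.35, limma adjusted p = 0.0118). Every LCAT library lay below every Vec library for these 3 genes. Cmpk2, next to Rsad2, had 266, 166, 116 and 95.8 in LCAT livers, against 339.6, 312, 308 and 349 in Vec livers (log2 fold change -1.13, SE 0.28, limma adjusted p = 0.0143). Parp12 had 1216, 791, 716 and 706 in LCAT livers, against 1348, 1440.3, 1285 and 1340.2 in Vec livers (log2 fold change -0.69, SE 0.17, limma adjusted p = 0.0127). Parp14 had 876, 794, 776 and 808 in LCAT livers, against 1244, 1304, 1038 and 1299 in Vec livers (log2 fold change -0.58, SE 0.097, limma adjusted p = 0.00216). The Parp14 libraries were even within the LCAT group, whereas LCAT 1 stood apart for Parp12. Isg15 had 1363, 598, 440.4 and 129.8 in LCAT livers, against 1077, 1212, 1265 and 1171 in Vec livers (log2 fold change -1.34, SE 0.6, limma adjusted p = 0.102). Isg15 spread more widely than any of these, with LCAT 1 highest and LCAT 4 lowest, and missed the threshold. Ifi27 (0.62), Ifi27l2a (0.60), Bst2 (0.40) and Ifi35 (0.26) had positive log2 fold changes that did not pass, and are the members with a positive value. Their transcripts, 463 to 1362 bases, are among the shortest, and Bst2 and Ifi35 had values of -0.083 each with length smoothed out.

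Of the modifiers, Usp18, Trim30a and Herc6 fell. Herc6 had 263, 266, 212 and 261 normalized counts in LCAT livers 1 to 4, against 443, 481, 381 and 438 in Vec livers (log2 fold change -0.80, SE 0.11, limma adjusted p = 0.001). Trim30a had 285, 226, 165 and 195 in LCAT livers, against 401, 406, 321 and 404 in Vec livers (log2 fold change -0.84, SE 0.17, limma adjusted p = 0.00587). Usp18 had 1176, 739.6, 655 and 451 in LCAT livers, against 1228, 1238, 1168 and 1143 in Vec livers (log2 fold change -0.74, SE 0.25, limma adjusted p = 0.0424). The groups were apart for Herc6 and Trim30a, whereas LCAT 1 fell among the Vec values for Usp18, whose call was lost in 6 of the 8 fits without 1 library. Trim25 averaged 2503 ± 263 in LCAT livers and 2711 ± 178 in Vec livers (SD, n = 4 each), with a log2 fold change of -0.12 that did not pass and was 0.18 with length smoothed out.

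**Figure D4:**
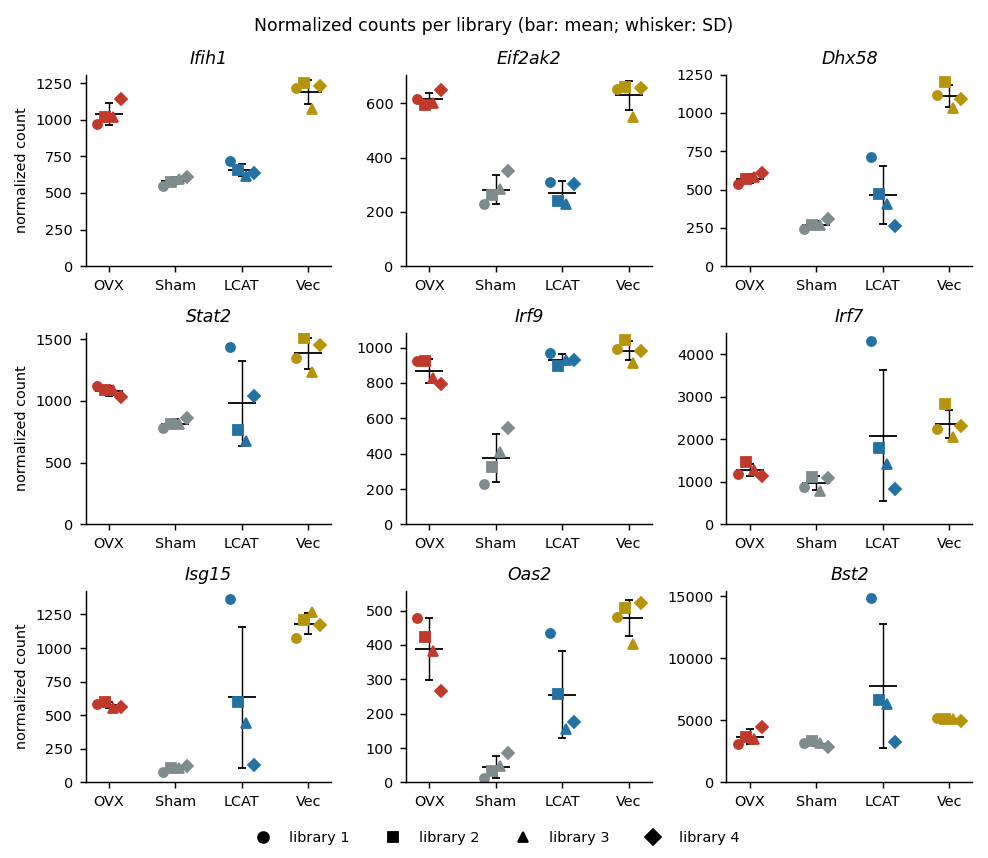
Normalized counts per library for 9 members, with library 1 to 4 shown by the marker's shape, the mean as a bar and the SD as whiskers. Ifih1 and Eif2ak2 separate OVX from Sham and LCAT from Vec with no overlap, whereas the LCAT points of Irf7, Isg15 and Bst2 spread across the Vec range, with LCAT 1 highest and LCAT 4 lowest.

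Several sets of cell type markers moved with LCAT as well. Of all genes, 20.2% rose and 20.5% fell. Kupffer cell markers were higher for 12 of 12. Their summed level was 7050 to 8188 normalized counts in LCAT livers, against 2725 to 3118 in Vec livers. Marco (means of 190.9 in LCAT and 2.755 in Vec livers) and Timd4 (49.9 and 3.01) reached the minimum mean only through their LCAT values. Their increases are therefore weak evidence. LCAT 1 lay within the Vec range for Timd4 (3.11) and Cd163 (26.4), and above it for Marco (7.78) and Folr2 (20.2). LCAT 1 was the lowest LCAT library for each of these, and the highest for C1qa, C1qb and C1qc. Monocyte markers were higher for 1 (11.1%) and lower for 2 (22.2%) of 9 tested. Their sums were 4103 to 8105 in LCAT livers and 10220 to 11670 in Vec livers. Mpeg1, a pore-forming protein of macrophages, makes up most of that sum, and the other monocyte markers summed to 504 to 992.5 in LCAT livers and 584 to 699 in Vec livers, which overlap. Endothelial markers were higher for 5 and lower for 2 of 9, with sums of 2901 to 5489 in LCAT livers and 3209 to 3867 in Vec livers. Leukocyte markers were higher for 4 of 6, with sums of 1309 to 1652 in LCAT livers and 1041 to 1191 in Vec livers. Cholangiocyte markers were higher for 4 and lower for 1 of 6, with sums of 22560 to 30260 in LCAT livers and 67840 to 85170 in Vec livers. Spp1, the gene that fell, makes up nearly all of that sum, and without it the sums were 754.5 to 1514 in LCAT livers and 417 to 493 in Vec livers. Those that rose were Krt19, Krt7, Epcam and Cftr. Cftr was at 0 in every Vec library, so it reached the minimum mean only through its LCAT values. Markers of plasmacytoid dendritic cells were higher for 2 and lower for 3 of 6 tested. Spib, among those that rose, reached the minimum mean only through its LCAT values (means of 16.75 in LCAT and 4.288 in Vec livers). Siglech had 37 reads in LCAT and 16 in Vec livers in all. Hepatocyte markers were higher for 3 (Apoa2, Ttr and Serpina1a) and lower for 1 (Fgb) of 9. Of the B and plasma cell markers 1 of 3 tested rose, namely Jchain (2.74), and of the NK cell markers 1 of 2 fell, namely Klrb1c (-0.92). Of the neutrophil markers tested, S100a8 and S100a9 rose and Mpo fell. Mpo had 0 in every LCAT library and 66.4 to 75.6 normalized counts in Vec livers, so it reached the minimum mean only through Vec. T cell markers summed to 125 to 358 in LCAT livers and 154 to 183 in Vec livers, and markers of dividing cells to 604 to 992.5 in LCAT livers and 755 to 966.5 in Vec livers, with overlap for both. The part of these cell types in the decrease of the interferon genes was not tested.

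The spread within LCAT livers was larger for the members than for other genes. The median SD of the log2 level was 0.596 over the 37 members and 0.299 over all genes tested in LCAT livers, against 0.0986 and 0.126 in Vec livers. In OVX livers these medians were 0.125 and 0.151, and in Sham livers 0.237 and 0.211. Within LCAT livers the Ifit genes had a median SD of 0.754 and the sensors of 0.252.

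The difference between the 2 effects was tested directly in 1 fit of all 16 libraries, as the OVX effect minus the LCAT effect. It was positive past the threshold for 31 of 37 members and negative for 0, against 22.9% and 21.9% of the 13162 genes tested, and the median was 1.87. The largest differences were in Oas2 (4.40, 95% interval 3.04 to 5.75), Oas3 (3.97, 3.24 to 4.71), Isg15 (3.82, 2.45 to 5.18), Ifi44 (3.60, 2.78 to 4.42), Zbp1 (3.42, 2.25 to 4.59) and Ifit1 (3.33, 2.43 to 4.23). All 5 sensors, all 4 Ifit genes and all 6 synthetases passed, as did Stat2 and Irf9, 11 of the 15 other effectors and 3 of the 4 modifiers. Irf7, Ifi35, Ifi27, Ifi27l2a, Bst2 and Trim25 did not pass. All 31 calls were kept in each fit that left out 1 library.

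Counted gene by gene, 14 members rose in OVX livers and fell in LCAT livers, or 37.8% of the members, against 5.16% of the 12780 genes tested in both comparisons. They were Ifih1, Ddx58, Dhx58, Eif2ak2, Oas2, Oas3, Oasl1, Ifi44, Cmpk2, Parp12, Parp14, Usp18, Trim30a and Herc6. Another 18 rose in OVX livers and were not called in LCAT livers, among them all 3 transcription factors and all 4 Ifit genes. Rsad2 and Samd9l were called in LCAT livers and not in OVX livers, and Mx1, Bst2 and Trim25 in neither comparison. The OVX side of this split depended on the test for 3 of them: Rsad2 was called higher in OVX livers by edgeR (adjusted p = 0.0434), by DESeq2 and in the limma fit of all 16 libraries, Samd9l in that fit and with the replicate block (limma adjusted p = 0.0369), and Mx1 by DESeq2 (adjusted p = 0.0373). With equal totals all 5 were called higher in OVX livers. The LCAT side depended on the fit too. Stat2 and Isg15 were called lower in LCAT livers in the limma fit of all 16 libraries. Stat2, Irf9, Mx1 and Parp9 were called lower with equal totals, and Isg15 with length smoothed out. Of the 16 LCAT calls, 12 were kept in every fit of all libraries.

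**Figure D5:**
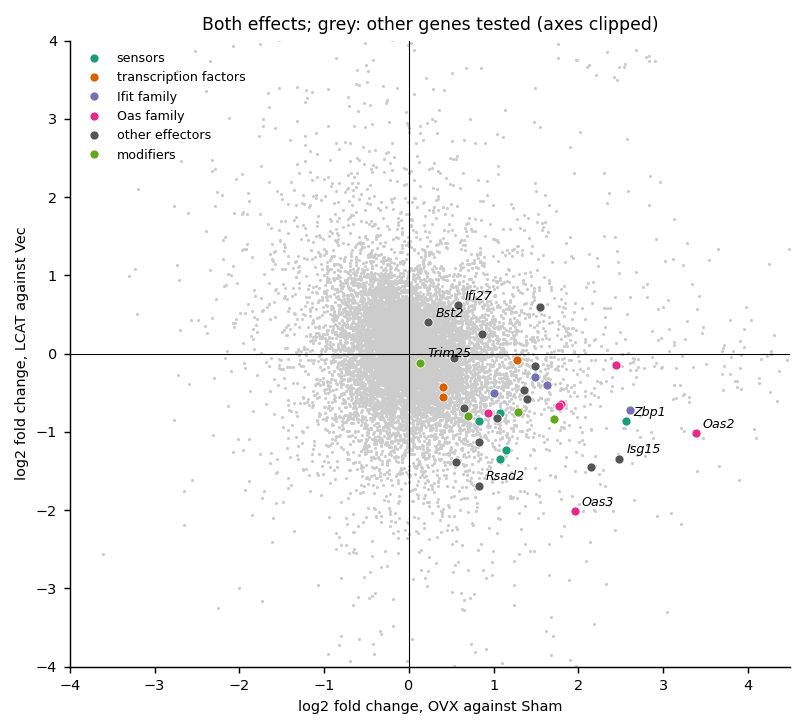
Log2 fold change of LCAT against Vec (vertical axis) against that of OVX against Sham (horizontal axis); coloured points are the 37 members by role, grey points the other genes tested, and the axes are limited to a common range. All members lie right of 0 and 33 lie below 0, with Oas2 farthest right at 3.38 and Oas3 lowest at -2.02.

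The levels of the groups can be set side by side only as a description, since the experiments share no control. The mean of Vec livers was above that of Sham livers for all 37 members. The mean over members of the log2 level, relative to the mean of the 16 libraries, was 0.14 to 0.36 in OVX, -1.28 to -0.87 in Sham and 0.61 to 0.83 in Vec livers, and in LCAT livers it was 0.77, 0.16, -0.10 and -0.48 for libraries 1 to 4. Per kilobase of transcript, Ifi27 and Bst2 had the highest levels in every group (4725 and 4660.0 normalized counts per kilobase in OVX livers, against 3174 and 3952 in Sham livers). Mx1 and Oas3 had the lowest in OVX livers (13.6 and 19.7 per kilobase) and in Sham livers (6.66 and 5.04).

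Upstream of these genes, interferon itself was scarcely sequenced. Of 19 type I and III ligand genes listed, Ifnb1 was the 1 with a row in the table, and it had 0 reads in OVX and 2 in Sham livers, and 0 in LCAT and 4 in Vec livers, summed over 4 libraries each. Ifng, the type II ligand, had 3 reads in LCAT livers and 0 in the other groups. A count of 0 allows up to 3 reads, so a difference in ligand transcripts was not detectable at this depth. The receptor subunit Ifnar1 had log2 fold changes of 0.09 in OVX and -0.26 in LCAT livers, neither of them called. Ifnar2 had -0.05, not called, in OVX livers and rose by 0.42 in LCAT livers. The other receptor calls in LCAT livers were decreases: Ifngr1 (-0.98) and Ifngr2 (-0.47) of the type II receptor, and Ifnlr1 (-2.15) of the type III receptor. Il10rb, its partner, had 0.35 in OVX and -0.13 in LCAT livers, neither called.

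Among all genes tested, 19% rose and 20.6% fell in OVX livers, and 20.2% rose and 20.5% fell in LCAT livers. Of the receptor kinases Jak1, Jak2 and Tyk2 and the factor Stat3, 1 of 4 rose and 1 fell in OVX livers. These shares, 25.0% each, were near those of all genes. Tyk2 rose by 0.36, and Jak2 had -0.60. In LCAT livers all 4 fell, namely Jak1 (-0.53), Jak2 (-1.10), Tyk2 (-0.39) and Stat3 (-0.74). Of 5 further interferon regulatory factors, Irf1 (0.98) and Irf3 (0.70) rose in OVX livers, or 40.0%. Irf3 (0.58) and Irf8 (0.47) rose and Irf5 (-0.60) fell in LCAT livers. Socs1, an inhibitor of the receptor kinases, rose by 2.70 in OVX livers, where 2 of 6 inhibitors rose (33.3%) and 1 fell (16.7%). Socs1 had means of 63.8 normalized counts in OVX and 9.005 in Sham livers, and so reached the minimum mean only through its OVX values.

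Of 13 adaptors, kinases and further sensors, 7 (53.8%) rose and 0 fell in OVX livers, against 19% and 20.6% of all genes. They included Tlr9 (2.01) and Tlr3 (1.18), endosomal sensors of DNA and of double-stranded RNA. Mb21d1 (1.90) and Tmem173 (0.87), which encode cGAS and STING of the cytosolic DNA pathway, were also among them. Tlr9 and Mb21d1 were low, with means of 6.09 and 8.71 normalized counts in Sham livers and 26.5 and 35.1 in OVX livers. Both reached the minimum mean of 10 only through the OVX livers. In LCAT livers 3 rose and 3 fell, each 23.1% and near the shares of all genes, with Tlr3 (-0.38) and Adar, which edits double-stranded RNA (-0.72), among those that fell and Tmem173 (0.80) among those that rose. Of 39 other interferon-induced genes in the table, 34 rose and 1 fell in OVX livers, and 1 rose and 9 fell in LCAT livers. The 34 are 87.2% of the list, against 19% of all genes that rose in OVX livers, whereas the 9 are 23.1%, near the 20.5% of all genes that fell in LCAT livers. Their medians were 0.86 in OVX and -0.19 in LCAT livers. Ddx60, a helicase that aids RNA sensing, was extreme in both, at 2.19 in OVX and -2.005 in LCAT livers, and Helz2 had 0.55 and -1.45. Of 7 genes known mainly for interferon gamma that were tested, 5 (71.4%) rose in OVX livers, against 19% of all genes. They were Ciita (3.40), Cxcl9 (1.71), Socs1, Irf1 and Gbp2, of which Socs1, Irf1 and Gbp2 also stand in the lists above. Ciita had a mean of 6.15 normalized counts in Sham livers, below the minimum mean of 10, and 46.9 in OVX livers. For Socs1 these means were 9.005 and 63.8. In LCAT livers 2 of 8 fell and 0 rose, and the share that fell (25.0%) was again near that of all genes. Nos2, among those that fell, reached the minimum mean only through its Vec values (means of 4.67 in LCAT and 22.3 in Vec livers).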

How the data were processed

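Polyadenylated RNA of mouse liver was sequenced in 16 libraries, 4 in each of the groups OVX, Sham, LCAT and Vec, which were taken from the labels. FastQC, HISAT2, SAMtools, StringTie and the build mm10 are named in the submitters' processing notes (counting tool, strand setting and annotation: unknown). The authors deposited 1 table of normalized counts, treated here as signal, in which the reads of each gene had been divided by 1 factor per library. After multiplication by that factor 100% of the values were whole reads within 0.01 read. Such scaling does not show a change in total RNA per cell.

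The members and the lists were chosen with earlier results of these data known; 1 gene of the signalling list is not reported here. Rows with a repeated name (4 rows, 2 names) were left out. limma 3.58.1 (R 4.3.3; trended, robust) was fitted to log2(value + 1) of every gene whose mean over the fitted libraries reached 10, with Benjamini-Hochberg adjustment over all genes tested and a threshold of 0.05; the pseudocount understates changes of low genes. The main test differs from a count test because the deposited values are scaled; alternatives on the recovered reads used DESeq2 1.42.0 and edgeR 4.0.16. The fitting code was tested on simulated data. Values by library were given for every sensor and transcription factor, for the 2 lowest p-values of each other role group in either comparison, and for members called in opposite directions. Transcript length is that of the longest protein-coding transcript in GENCODE M21, which matched 16479 of 16791 gene names. Other settings were a pseudocount of 0.5 or 5, a minimum mean of 50 or none, TMM or equal-total scaling, 1 fit of all libraries, a replicate block, libraries 1 and 4 only, and leaving out each library. Numbers shared between groups did not pair libraries.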

Additional observations from a re-analysis of the deposited data

Results flagged for a closer look

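Of the 148 sets of 4 libraries examined (37 genes in 4 groups), 13 (8.78%) held a library that stood apart from the other 3 by Dixon's test; chance gives about 1 in 20. In OVX livers, OVX 4 was high for Ifit2 (267 normalized counts) and Oasl2 (325) and low for Parp9 (894), and OVX 1 was high for Rtp4 (348). In Sham livers, Sham 3 was high for Rsad2 (187). In LCAT livers, LCAT 1 was high for Parp12 (1216.5), LCAT 3 was high for Oasl1 (444) and low for Herc6 (212), and LCAT 4 was high for Trim25 (2896). In Vec livers, Vec 2 was high for Oasl1 (945) and Mx1 (87.8), and Vec 3 was low for Eif2ak2 (551) and Trim30a (321).

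For 31 of 37 members the effect of OVX differed from the effect of LCAT by the test of the difference itself (limma, adjusted over all genes tested). The log2 differences, OVX effect minus LCAT effect, follow by role. Among sensors they were 1.69 for Ifih1, 1.83 for Ddx58, 2.43 for Dhx58, 3.42 for Zbp1 and 2.37 for Eif2ak2. Among transcription factors they were 0.96 for Stat2 and 1.35 for Irf9. Among Ifit genes they were 3.33 for Ifit1, 1.51 for Ifit2, 1.79 for Ifit3 and 2.03 for Ifit3b. Among synthetases they were 2.43 for Oas1a, 2.44 for Oas1g, 4.40 for Oas2, 3.97 for Oas3, 1.68 for Oasl1 and 2.59 for Oasl2. Among the other effectors they were 3.82 for Isg15, 3.60 for Ifi44, 2.51 for Rsad2, 1.96 for Cmpk2, 1.87 for Mx1, 0.58 for Parp9, 1.35 for Parp12, 1.98 for Parp14, 1.83 for Xaf1, 1.64 for Rtp4 and 1.95 for Samd9l. Among modifiers they were 2.03 for Usp18, 2.55 for Trim30a and 1.49 for Herc6.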

How the results depend on the processing

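With 1 library left out in turn, 29 to 33 members were higher in OVX livers, 13 to 25 were lower and 0 to 1 higher in LCAT livers, and 31 to 34 had a higher effect of OVX than of LCAT; 29 OVX calls and 13 LCAT calls were kept in every such fit. The extremes in LCAT livers came without LCAT 1 (25 lower) and without LCAT 4 (1 higher). With libraries 1 and 4 only, which leaves 2 per group, 0 genes rose and 0 fell in OVX livers and 1 rose and 2 fell in LCAT livers. There 0 members were called in OVX or in LCAT livers (27 higher and 9 lower at an unadjusted p below 0.05), and 3 in the difference. With equal totals, 4468 genes rose and 1210 fell in OVX livers. edgeR called 33 members higher in OVX and 15 lower in LCAT livers, and DESeq2 34 and 16. In every fit of all libraries, 28 of 32 OVX calls, 12 of 16 LCAT calls and 31 of 31 differences were kept wherever the gene was tested; with a minimum mean of 50, Mx1 was not tested.

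Lcat had log2 fold changes in LCAT livers of 0.35 with equal totals, 0.59 with libraries 1 and 4 only and 0.19 with length smoothed out, all short of the threshold, and of 0.47 to 0.68 with 1 library left out, short of it without Vec 2 (0.47, limma adjusted p = 0.0523) and without Vec 4 (0.48, limma adjusted p = 0.0528). The sign turned for members that were not called. With length smoothed out, LCAT log2 fold changes were -0.083 for Ifi35, -0.083 for Bst2, 0.032 for Parp9 and 0.18 for Trim25, and differences were 0.42 for Ifi27, 0.35 for Bst2 and -0.074 for Trim25. With equal totals the differences were 0.38 for Ifi27 and 0.25 for Bst2. With 1 library left out, LCAT log2 fold changes ran -0.62 to 0.0039 for Ifit3, -0.38 to 0.097 for Oasl2 and -0.33 to 0.035 for Rtp4, and differences -0.34 to 0.31 for Ifi27 and -0.52 to 0.21 for Bst2. The cause was not tested.

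Same-numbered libraries did not deviate together (correlations of -0.0586 to 0.04 for OVX and Sham and of -0.0342 to 0.121 for LCAT and Vec). With the replicate number as a block, 33 members were higher in OVX livers, 15 lower in LCAT livers and 31 differed, with 2052 genes higher and 2285 lower in OVX livers and 2228 and 2327 in LCAT livers; not every library correlated best with its own number. The number of libraries, 4 per group, and the few reads of the ligands limit what can be seen.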
